A study of Mus musculus with 30 samples.

Results

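The comparison described here is that of 3T3-L1 preadipocytes 72 h after transfection with an siRNA against Kdm5c with cells of the same age that had received a non-targeting siRNA, called scramble. It holds 10 of the 30 RNA-seq libraries of the study, chosen by their day and siRNA labels, 5 per group, and it was read across the 12016 genes tested. 3T3-L1 is a mouse fibroblast line that turns into adipocytes when it is induced, and the other 20 libraries came from the same siRNAs at 24 and 48 h. Both groups were reverse-transfected at 50 nM with Lipofectamine RNAiMAX while still below confluence, with ON-TARGET siRNA from Dharmacon, and collected on day 0, the day on which differentiation would begin. The cells are 1 line, and the labels name 1 siRNA reagent against Kdm5c. Whether the 5 replicates of a group came from separate cultures is not said, and the p-values therefore reflect only how far these libraries vary, which could be technical variation.

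KDM5C, encoded on the X chromosome, removes methyl groups from lysine 4 of histone H3, a mark of active promoters and enhancers. It acts in complexes that repress transcription, and in other cells it is known for silencing germline genes and for its role in neurons. Preadipocytes grow, reach confluence and stop dividing before the hormone cocktail that starts differentiation is given, and the 72 h samples were taken at that point.

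The 10 libraries held 26252962 to 30688043 reads, so that a count of 0 in a library allows up to 0.098 to 0.114 CPM, the unit used throughout, which scales the reads of a gene by the total of its library. The summed level of 10 fibroblast and preadipocyte markers was 55366 to 59585 CPM in the scramble and 54876 to 59842 CPM in the Kdm5c siRNA libraries. Fn1, Col1a1, Col1a2 and Col3a1 made up most of this sum. Of the 9 markers that were tested 2 were called higher and 3 lower, and the other, Lum, had means of 9.68 and 2.30 CPM. Of 10 markers of mature adipocytes 8 were below 1 CPM in every library, and Lep, Retn and Adrb3 were at 0. Markers of leukocytes summed to 7.85 to 10.22 against 7.92 to 9.26 CPM with Adgre1 and Itgam at 0, those of endothelial cells to 6.67 to 7.36 against 7.19 to 10.26 CPM, and those of epithelial cells to at most 0.86 CPM. Adipocyte markers summed to 34.09 to 41.5 against 37.86 to 46.18 CPM. Skeletal muscle markers summed to 9.3 to 10.85 against 9.46 to 11.88 CPM with Myod1 at 0. Neuron markers summed to 24.57 to 32.15 against 20.97 to 25.08 CPM with Rbfox3 at 0. Map2 made up most of the neuron sum, with means of 27.4 against 21.2 CPM, and 9 of the 10 neuron markers averaged below 1 CPM. In a principal component analysis of the 10 libraries, the first component, with 48.4% of the variance, parted the scramble libraries (−11.58 to −7.54) from the Kdm5c siRNA libraries (9.74 to 10.9). The second held 12% and had the library numbered 1 of each group at one end (−10.57 and −6.75, against −3.49 to 6.13 for the others). In bulk RNA, fewer cells of a kind and less RNA per cell cannot be told apart.

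The targeted transcript was lower in each Kdm5c siRNA library. Kdm5c (ENSMUSG00000025332) stood at 204, 213, 215, 217 and 210.3 CPM in the scramble libraries 1 to 5 and at 49.2, 54.05, 53.3, 54.8 and 55.1 CPM after Kdm5c siRNA, which is 25.2% of the scramble mean. The groups did not overlap, and the log2 fold change was −1.99 (SE 0.04, adjusted p = 4.57e-29, edgeR quasi-likelihood test with Benjamini-Hochberg adjustment, used for all adjusted p below). The two-sided exact permutation p was 0.00794, and with 5 libraries per group no smaller one is possible. The depth of the knockdown differed from the earlier times: the log2 fold change at 72 h was higher than that at 48 h by 0.42 (adjusted p = 6.15e-06) and than that at 24 h by 0.63 (adjusted p = 1.17e-09). The paralogues Kdm5a and Kdm5b, which remove the same mark, had log2 fold changes of 0.01 and −0.07 and were not called (adjusted p = 0.676 and 0.0524).

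At 72 h the change was broad and mostly small. At an adjusted p under 0.05, 2321 genes rose (19.3% of the 12016 tested) and 1941 fell (16.2%), 35.5% in all. Called changes had a median size of 0.16 (log2), and the median log2 fold change of all tested genes was 0.003. Only 167 genes rose and 50 fell by more than 1.5-fold, and 36 rose and 5 fell by more than 2-fold. In 2604 genes (21.7%) no library of a group overlapped the other group, and 2483 of these were called. Without the library numbered 1 of each group, 2161 genes rose and 1751 fell.

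**Figure D1:**
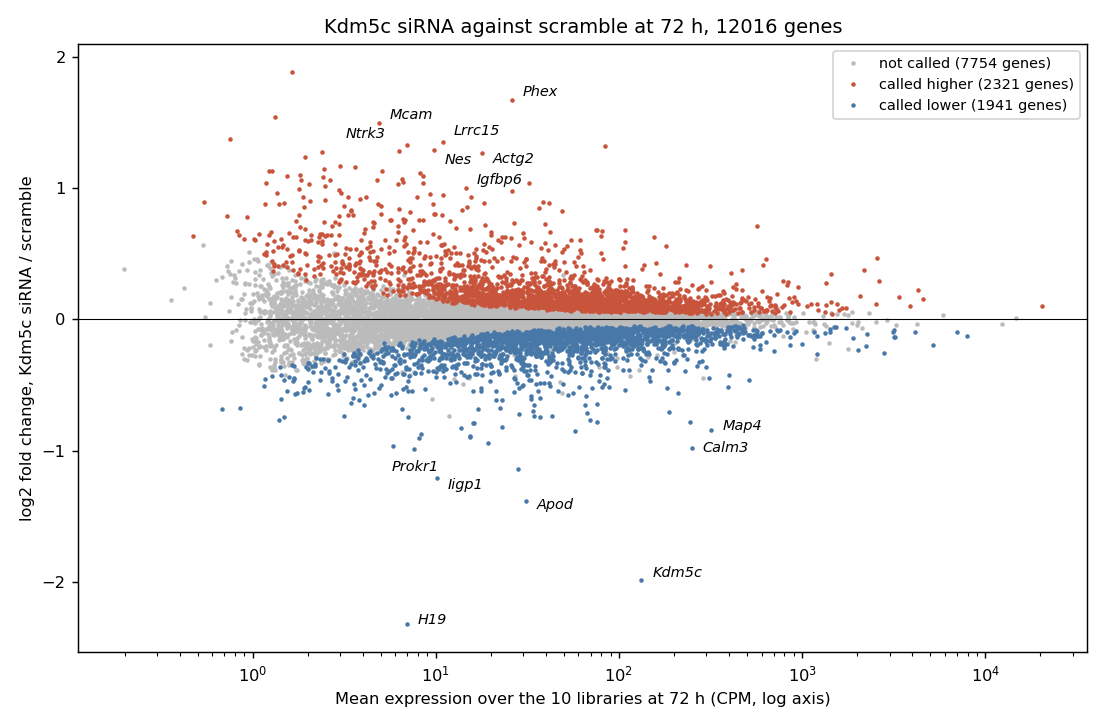
Log2 fold change at 72 h, Kdm5c siRNA over scramble, against mean expression over the 10 libraries (CPM, log axis), with 1 point per gene. Most called genes, red for higher and blue for lower, lie within 1 log2 unit of 0, and H19, Kdm5c and Apod are the lowest of the labelled genes and Phex the highest.

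Among genes averaging at least 2 CPM whose groups did not overlap, those that rose most include genes of surface, cytoskeletal and matrix proteins. Phex, a membrane peptidase of bone cells whose gene lies on the X chromosome, stood at 12.99, 12.1, 13.8, 10.8 and 12.3 CPM in the scramble libraries and at 45.4, 40.8, 35.9, 36.8 and 38.6 CPM after Kdm5c siRNA. Every Kdm5c siRNA library lay far above every scramble library (log2 fold change 1.67, SE 0.06, adjusted p = 3e-20). Mcam, the adhesion molecule CD146 of pericytes and endothelium, rose from 3.50, 2.29, 2.60, 1.82 and 2.56 CPM to 7.72, 6.15, 6.55, 7.62 and 8.01 CPM, with a log2 fold change of 1.5 (adjusted p = 8.27e-13). Lrrc15, a membrane protein of activated fibroblasts, went from 6.21, 6.17, 6.04, 6.54 and 5.88 CPM to 14.8, 16.4, 16.8, 15.95 and 14.9 CPM. The libraries were close together within each group, and the log2 fold change was 1.35 (adjusted p = 1.06e-16).

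Ntrk3, the receptor of neurotrophin 3, stood at 4.04, 3.50, 5.30, 3.68 and 3.36 CPM against 9.42, 8.94, 9.78, 11.3 and 10.4 CPM (log2 fold change 1.33, adjusted p = 1.9e-11). Nes, the intermediate filament nestin, stood at 6.44, 5.14, 6.30, 5.08 and 5.30 CPM against 16.1, 13.7, 12.7, 13.8 and 12.7 CPM (log2 fold change 1.29, adjusted p = 9.82e-16). Actg2, the gamma actin of smooth muscle, stood at 11.8, 10.1, 10.2, 9.92 and 10.5 CPM against 25.7, 25.1, 25.4, 25.4 and 25.1 CPM (log2 fold change 1.27, adjusted p = 5.21e-16). In all 3 genes the lowest Kdm5c siRNA library was above the highest scramble library, and the 5 values of Actg2 after Kdm5c siRNA were the closest together. The other genes named by this rule rose by 1.07 to 1.32 on the log2 scale. They were Lsp1, an actin-binding protein (1.32), Lpin3, a phosphatidate phosphatase (1.28), the cathepsin gene Ctsw (1.28), the organic anion transporter Slco4a1 (1.17), Tll1, a procollagen and chordin protease (1.13), the tetraspanin Cd53 (1.12), the adrenergic receptor Adra2a (1.09), the GABA transaminase Abat (1.09) and the TBK1 adaptor Tbkbp1 (1.07). Of these, Lsp1 was the most abundant, at 47.7 ± 2.34 to 119 ± 5.54 CPM (SD, n = 5 per group).

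The genes that fell most were few and included H19, interferon-induced genes and genes that were already lower at 24 h. H19, an imprinted long non-coding RNA, stood at 12.1, 10.3, 11.8, 11.3 and 12.3 CPM in the scramble libraries and at 2.25, 2.08, 2.37, 2.40 and 2.39 CPM after Kdm5c siRNA. The values of the Kdm5c siRNA libraries were close together and far below those of the scramble libraries, and the log2 fold change was −2.33 (SE 0.10, adjusted p = 6.13e-19). Prokr1, a receptor for prokineticins, stood at 7.21, 10.2, 8.86, 10.6 and 13.6 CPM against 4.63, 4.91, 4.82, 4.90 and 6.09 CPM (log2 fold change −0.99, adjusted p = 9.75e-08). Gpr155, a membrane protein with several transmembrane segments, stood at 10.1, 11.999, 11.05, 10.4 and 9.57 CPM against 5.38, 7.17, 6.02, 5.15 and 4.57 CPM (log2 fold change −0.90, adjusted p = 1.43e-09). Prokr1 varied most among the scramble libraries, and in both genes the groups did not overlap. Apod, a lipocalin that carries lipids, fell by 1.39 and Cdo1, a cysteine dioxygenase, by 0.89 on the log2 scale.

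Calm3, one of the calmodulin genes, and Map4, a microtubule protein, were the abundant members of this group. Calm3 stood at 329.7, 336, 329, 335 and 333 CPM against 166, 168, 172, 167 and 165 CPM, and Map4 at 420.3, 407, 406, 409 and 411 CPM against 235, 238, 226, 222 and 221 CPM. Their libraries were close together within each group, and the log2 fold changes were −0.98 (adjusted p = 2.38e-23) and −0.84 (adjusted p = 5.85e-24). Both had fallen further at the earlier times: the effect at 72 h minus that at 24 h was 0.41 for Calm3 (adjusted p = 1.35e-08) and 0.37 for Map4 (adjusted p = 1.63e-09), next to 0.63 for Kdm5c itself.

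**Figure D2:**
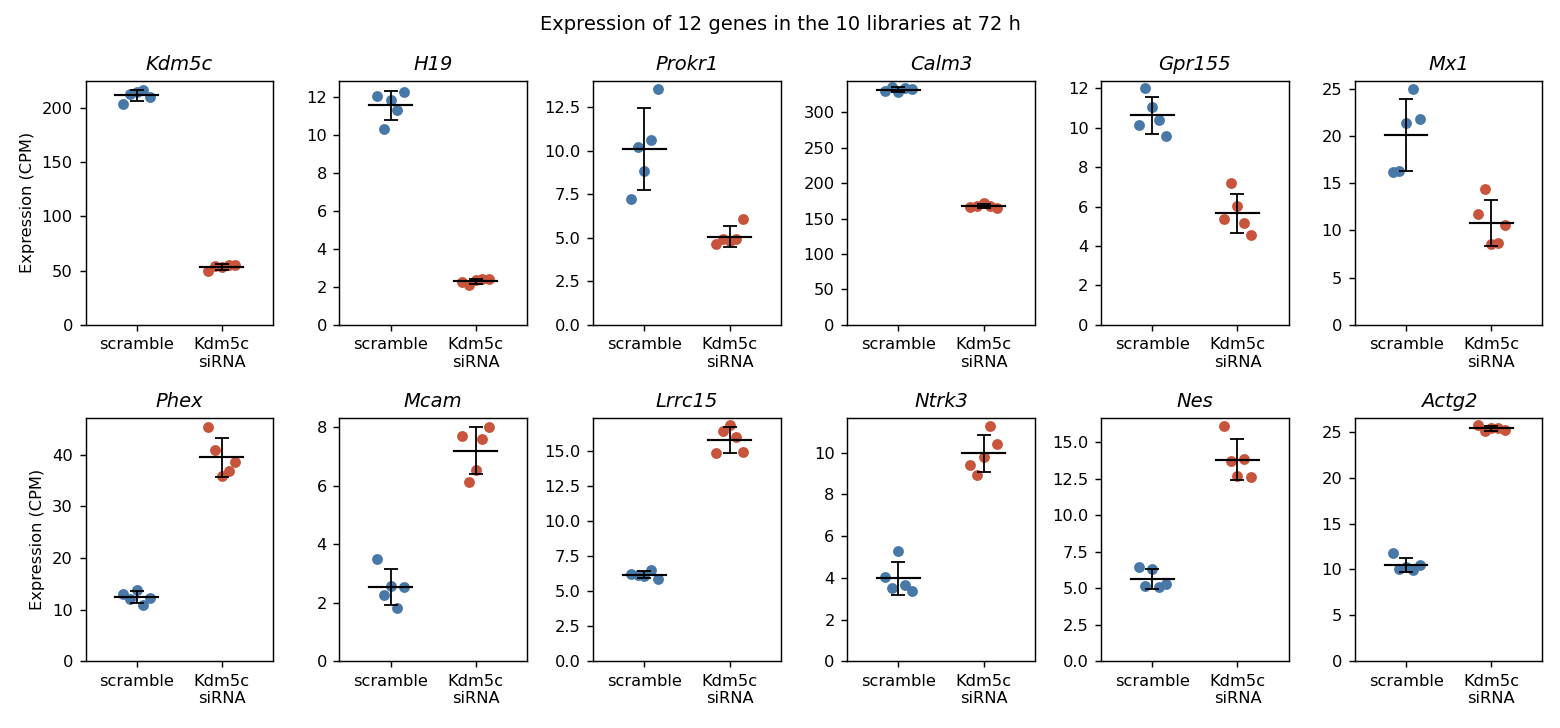
Expression (CPM, axis from 0) of 12 genes in the 10 libraries at 72 h, 1 point per library, with the mean and SD of each group in black. In each panel the points of the groups are apart, and the Kdm5c siRNA points of H19, Calm3 and Actg2 nearly coincide.

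H19 lies on chromosome 7 (GRCm38, 142575529 to 142578143, minus strand) and contains the hairpin of miR-675. The RefSeq table (GRCm38.p6) places both mature miRNAs inside the gene, at chr7:142577078-142577099 and chr7:142577112-142577133 on the minus strand. They are shown because the host transcript had the lowest log2 fold change of the named genes, and capitals mark the seed, bases 2 to 8. The miRNAs themselves were not measured in these mRNA libraries.
miR-675-5p: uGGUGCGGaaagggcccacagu
miR-675-3p: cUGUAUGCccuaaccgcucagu

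The other tested genes within 300 kb of H19 did not move as H19 did. Lsp1, about 80.7 kb away, rose from 49.7, 46.4, 50.5, 47.03 and 44.9 CPM to 126, 114, 113, 123 and 119 CPM, a log2 fold change of 1.32 (adjusted p = 4.81e-25). Syt8, a synaptotagmin gene 135.1 kb away, rose by 0.65 on the log2 scale from low levels (1.81 ± 0.344 to 2.85 ± 0.189 CPM). Mrpl23, a gene of the mitochondrial ribosome and the nearest of them at 34.8 kb, fell by 0.22, and its adjusted p was 0.0467. Tnnt3 and Ctsd were not called, at 0.11 and −0.04. Igf2, the imprinted neighbour of H19, was below the expression filter, with means of 0.18 CPM in the scramble and 0.056 CPM in the Kdm5c siRNA libraries, under the level of 3 reads in the second group.

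Interferon-stimulated genes, which cells switch on through STAT and IRF factors after sensing interferon or foreign nucleic acid, were lower after Kdm5c siRNA. Of the 64 tested of a list of 71, 35 fell, 1 rose and 28 were not called, against a background of 16.2% of all genes that fell and 19.3% that rose. The median log2 fold change was −0.45, against 0.003 over all genes, and 62 of the 64 values were below 0. The mean level of the list was 5.46, 5.34, 5.46, 5.70 and 5.36 in the scramble libraries and 5.26, 5.13, 4.77, 4.90 and 4.90 on the log2 CPM scale after Kdm5c siRNA. The groups did not overlap, with scramble library 4 the highest and Kdm5c siRNA libraries 1 and 2 the highest of theirs. The count moved with single libraries: 20 genes fell without scramble library 4 and 20 without Kdm5c siRNA library 3, while 57 fell in a fit to the 10 libraries alone, where the spread of the earlier times did not enter.

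The members cover sensing, signalling and effectors. Of the transcription factors, Stat2 fell from 251 ± 19.9 to 170.4 ± 13.3 CPM and Irf7 from 41.99 ± 5.36 to 26.7 ± 4.06 CPM (SD, n = 5 per group), with log2 fold changes of −0.56 and −0.65. Irf9, a partner of Stat2, had a log2 fold change of −0.16 and was not called (adjusted p = 0.215). Ifit1, which binds foreign RNA, stood at 86.9, 86.1, 99.9, 115 and 93.5 CPM against 69.2, 64.6, 44.8, 49.8 and 51.1 CPM (log2 fold change −0.78, adjusted p = 0.00497). The groups did not overlap, and the order of the Kdm5c siRNA libraries was that of the whole list, with the first pair highest. The guanylate-binding protein genes Gbp6 and Gbp9 fell by 0.87 and 0.97, the immunity-related GTPases Iigp1 and Igtp by 1.21 and 0.68, the antiviral GTPase Mx1 by 0.90, the nuclear body protein Sp100 by 0.95 and Ifi27l2a by 1.14 on the log2 scale. Trim30d, which is not on the list, fell by 0.83. The antiviral genes Ifit3 and Ifi44 fell by 0.85 and 0.77, the second with an adjusted p of 0.0262. Rsad2, the antiviral enzyme viperin, was not called, at −0.45 (adjusted p = 0.202). The exception was Ifi27, which rose from 122 ± 9.75 to 189 ± 4.03 CPM, by 0.63 on the log2 scale (adjusted p = 1.49e-12).

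Promoters of this list often hold the core of the interferon response element. The letters GAAANNGAAA, on either strand, were in 52.2% of the 46 members with a RefSeq promoter (250 bases before to 50 after the start), against 3.7% of 9075 tested genes. Of the 24 members with a match 11 fell, with a median log2 fold change of −0.45, and of the 22 without one 13 fell, with a median of −0.38. Called members with a match within the last 180 bases before the start are shown for Ifit1 (chr19:34640709-34640870, plus strand) and Igtp (chr11:58199376-58199555, plus strand), GRCm38.p6, cut so that no base of the annotated gene is included. Capitals mark the matches, which begin at positions −104 and −85 of Ifit1 and −34 of Igtp, counted from the RefSeq start.
Ifit1: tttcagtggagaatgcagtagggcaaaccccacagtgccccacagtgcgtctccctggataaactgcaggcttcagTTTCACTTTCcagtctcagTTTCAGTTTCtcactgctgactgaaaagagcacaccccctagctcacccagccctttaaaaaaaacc
Igtp: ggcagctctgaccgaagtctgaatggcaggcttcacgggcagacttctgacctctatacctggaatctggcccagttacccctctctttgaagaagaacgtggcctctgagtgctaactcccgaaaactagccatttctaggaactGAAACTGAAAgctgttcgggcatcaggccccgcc

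Genes of antigen presentation and of nucleic acid sensing had called members in both directions, against 19.3% higher and 16.2% lower of all genes. Of 22 tested genes of MHC class I and antigen presentation 10 fell and 2 rose, with a median of −0.19. Psmb10, a subunit of the immunoproteasome, fell from 41.8 ± 2.31 to 25.7 ± 1.05 CPM, and Nlrc5, the activator of MHC class I genes, from 27.9 ± 2.98 to 18.2 ± 2.22 CPM. The class I heavy chain genes H2-K1 and H2-D1 and their partner B2m had log2 fold changes of −0.16, −0.25 and −0.18 and were not called. The members that rose, Pdia3 and Canx, are chaperones of the endoplasmic reticulum. Of 21 genes listed for RNA and DNA sensing 7 fell and 4 rose, the second close to the share of all genes. The adaptor Myd88 fell by 0.28 and the receptor Tlr3 by 0.45. Tlr2, a listed receptor that is not itself known as a sensor of RNA or DNA, rose by 0.36. In the fit to the 10 libraries alone 16 genes of the antigen presentation list and 11 of the sensing list fell. Without scramble library 4, or without Kdm5c siRNA library 3, 3 genes of the sensing list fell and 4 rose.

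Genes of mitosis were higher after Kdm5c siRNA at a time when their level was low. Of 62 tested genes 49 rose and 0 fell, against 19.3% and 16.2% of all genes. The median log2 fold change was 0.15, with a largest value of 0.36. The groups did not overlap in 9 of the 62, among them Cks1b and Cdk1, against 21.7% of all genes. Cks1b, a cofactor of cyclin-dependent kinases, stood at 39.2, 33.5, 33.6, 32.9 and 32.8 CPM in the scramble libraries and 45.2, 42.2, 43.7, 45.8 and 43.9 CPM after Kdm5c siRNA (adjusted p = 2.85e-09). The kinase Cdk1 stood at 44.4, 40.1, 43.7, 41.99 and 40.6 CPM against 53.7, 46.98, 46.9, 49.5 and 48.2 CPM (log2 fold change 0.22, adjusted p = 2.71e-06). Scramble library 1 was the highest of its group for both genes, without reaching the Kdm5c siRNA libraries. The nuclear import factor Kpna2 rose by 0.27, the kinesin Kif20a by 0.21, cyclin B2 (Ccnb2) by 0.21, cyclin B1 (Ccnb1) by 0.18, the spindle checkpoint gene Mad2l1 by 0.20 and the proliferation marker Mki67 by 0.10 on the log2 scale.

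The list as a whole went down with time in both groups. Its mean in the scramble libraries was 6.57 to 6.59 at 24 h, 6.202 to 6.285 at 48 h and 5.33, 5.15, 5.25, 5.13 and 5.14 on the log2 CPM scale at 72 h. After Kdm5c siRNA it was 6.56 to 6.61, 6.23 to 6.29 and 5.45, 5.35, 5.30, 5.35 and 5.32. At 72 h scramble library 1 lay among the Kdm5c siRNA libraries and the other scramble libraries below them. Without the library numbered 1 of each group 47 members rose, and with any single library left out 41 to 54 did. The effect at 72 h was higher than that at 24 h for 28 of the 62 genes and higher than that at 48 h for 11, with none lower in either test. The background of these tests was 9.95% of all genes positive and 6.18% negative for 72 h minus 24 h, and 4.06% and 1.81% for 72 h minus 48 h.

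The cell cycle homology region, TTTGAA on either strand, is a sequence of mitotic promoters bound by the DREAM and MuvB complexes. It was in 68.6% of 51 mitosis promoters, against 14% of all 9075. Of the 35 members with it 30 rose (median log2 fold change 0.16), and of the 16 without it 12 rose (median 0.16). The stretches before Kpna2 (chr11:106999542-106999705, minus strand) and Cdk1 (chr10:69352939-69353092, minus strand) are shown from the RefSeq table, GRCm38.p6, with the matches, at positions −35 and −71, in capitals.
Kpna2: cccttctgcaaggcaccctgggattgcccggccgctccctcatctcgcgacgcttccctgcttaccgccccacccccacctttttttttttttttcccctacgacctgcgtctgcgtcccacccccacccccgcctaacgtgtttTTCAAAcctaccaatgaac
Cdk1: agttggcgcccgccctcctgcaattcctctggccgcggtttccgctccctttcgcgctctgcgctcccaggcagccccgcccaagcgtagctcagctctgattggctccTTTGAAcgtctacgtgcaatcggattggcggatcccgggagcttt

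Genes of the steps before mitosis had called members in both directions, against 19.3% higher and 16.2% lower of all genes. Of 55 DNA replication genes 18 rose and 2 fell (median 0.07). The maintenance methyltransferase Dnmt1, the clamp loader subunit Rfc2 and the flap endonuclease Fen1 rose by 0.15, 0.18 and 0.20, while Mcm2, Cdc6 and Pcna were not called. The number that rose was 29 without scramble library 1 and 11 without Kdm5c siRNA library 1. Of 32 genes of G1 cyclins, their inhibitors, E2F factors and pocket proteins 14 rose and 4 fell. Of the D-type cyclins, Ccnd1 rose from 271 ± 16.1 to 359 ± 14.9 CPM and Ccnd2 from 1221 ± 13.2 to 1476 ± 30.4 CPM, with log2 fold changes of 0.41 and 0.28. Myc rose by 0.38, and the inhibitor Cdkn2c fell by 0.21. Of 31 genes of the p53 pathway 12 rose and 5 fell (3 fell without scramble library 4 or 5). Mdm2, the ligase that degrades p53, rose from 3188 ± 61.1 to 3579.8 ± 111 CPM.

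Called ribosomal protein genes were all lower, and all but 1 of the called genes of ribosome assembly were higher. Of 80 tested genes of cytosolic ribosomal proteins 46 fell and 0 rose (median −0.09). Rpl17 stood at 392, 412, 388, 406 and 404 CPM against 349, 364, 348, 342 and 337 CPM, a log2 fold change of −0.20 (adjusted p = 3.42e-07). The groups did not overlap. Rpl4 fell from 1254 ± 10.5 to 1145 ± 29.1 CPM and Rplp0 from 1768 ± 27.1 to 1684 ± 36.5 CPM. Many ribosomal protein genes have processed pseudogenes, so reads may be split between copies. Of 54 ribosome biogenesis genes 19 rose and 1 fell (13 to 26 rose with 1 library left out). The groups did not overlap in 4 of the 54, against 21.7% of all genes. Nop56, Heatr1 and Ppan, which act in the nucleolus, rose by 0.23, 0.24 and 0.18, and Ncl, Fbl and Npm1 were not called. Of the 7 tested mitochondrially encoded mRNAs 5 fell, among them mt-Co1 from 8329 ± 265 to 7599 ± 215 CPM (2 fell without Kdm5c siRNA library 4, and 3 without any one of scramble libraries 2, 3 and 5 and Kdm5c siRNA library 1). Of 77 nuclear genes of the respiratory chain 13 fell and 2 rose (8 fell without scramble library 4). Over all genes 16.2% fell and 19.3% rose. The lower calls of the respiratory chain list were thus close to the share of all genes, and its higher calls were below it.

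**Figure D3:**
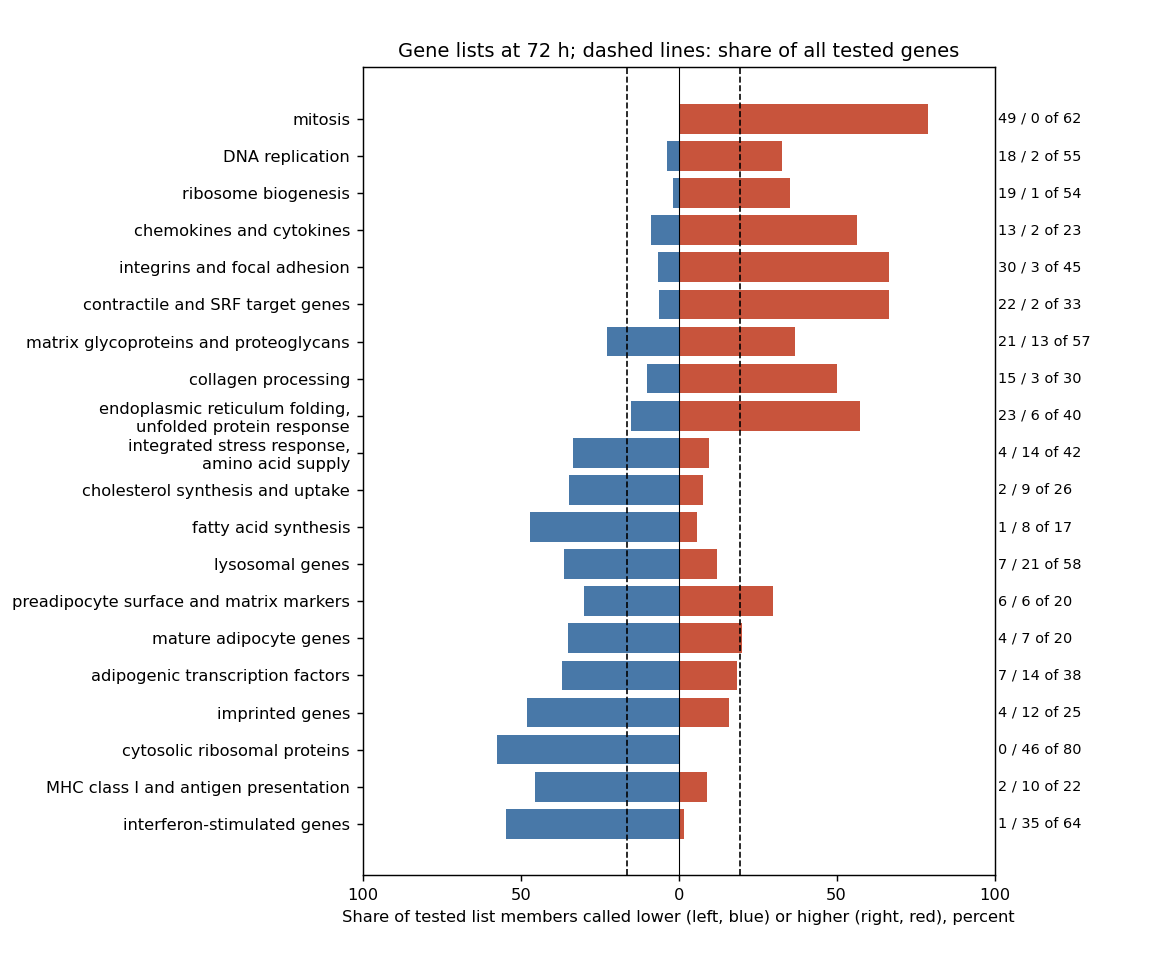
Share of the tested members of 20 gene lists called lower (blue, to the left) or higher (red, to the right) at 72 h, in percent, with the counts higher and lower at the right edge. Dashed lines mark the shares over all 12016 genes, 16.2% lower and 19.3% higher; mitosis, adhesion and contractile genes reach furthest to the right, and ribosomal protein and interferon-stimulated genes furthest to the left.

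Contractile genes were higher after Kdm5c siRNA, beyond Actg2. Of 33 tested genes of a list of contractile genes and targets of serum response factor 22 rose and 2 fell (median 0.12). Among all genes tested 19.3% rose and 16.2% fell. Tagln, the smooth muscle protein transgelin, stood at 20.4, 15.6, 16.5, 16.8 and 17.9 CPM against 35.3, 30.5, 34.4, 35.7 and 36.03 CPM (log2 fold change 0.98, adjusted p = 5.04e-13). Myl9, the regulatory light chain of myosin, stood at 27.9, 24.3, 25.5, 25.04 and 28.02 CPM against 48.1, 42.3, 46.1, 50.97 and 48.4 CPM (log2 fold change 0.85, adjusted p = 6.56e-14). Neither gene's groups overlapped. Tnnt2 rose by 0.88, Acta2, the actin of myofibroblasts, from 527 ± 25.5 to 702 ± 23.8 CPM, and Tpm4 from 561 ± 14.6 to 650.3 ± 15.1 CPM. Srf itself was not called, at −0.03.

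The CArG box, the binding sequence of serum response factor, was in 31% of 29 promoters of this list and in 1.5% of all 9075, searched on both strands. Of the 9 members with it 5 rose (median log2 fold change 0.17), and of the 20 without it 13 rose and 2 fell (median 0.11). The stretches before Myl9 (chr2:156775284-156775419, plus strand) and Actg1 (chr11:120348543-120348675, minus strand), from RefSeq, GRCm38.p6, are shown with the box in capitals, at positions −161 and −90. Actg1, a cytoplasmic actin, rose by 0.10 on the log2 scale.
Myl9: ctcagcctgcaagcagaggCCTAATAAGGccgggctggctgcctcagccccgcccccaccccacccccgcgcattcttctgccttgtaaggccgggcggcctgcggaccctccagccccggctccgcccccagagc
Actg1: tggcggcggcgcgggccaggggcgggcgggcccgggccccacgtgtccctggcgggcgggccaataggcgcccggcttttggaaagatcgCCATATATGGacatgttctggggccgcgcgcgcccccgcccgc

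Most adhesion genes rose as well. Of 45 tested integrin and focal adhesion genes 30 rose and 3 fell (median 0.14), against 19.3% and 16.2% of all genes. Itga3, an integrin that binds laminin, rose from 26.4 ± 2.05 to 39.8 ± 1.19 CPM, Cd44, the receptor of hyaluronan, from 199 ± 12.9 to 265 ± 9.78 CPM, and Flna, filamin A, from 2351 ± 98.8 to 2876 ± 26.4 CPM. Vinculin (Vcl), alpha-actinin (Actn1) and zyxin (Zyx) rose by 0.19, 0.17 and 0.13. Of 31 targets of YAP and TEAD 11 rose and 2 fell. Ankrd1 rose from 4.19 ± 0.53 to 7.06 ± 1.05 CPM, and Fjx1 and Ddah1 rose by 0.61 and 0.38. The TEAD motif, GGAATG on either strand, was in 52% of the 25 YAP target promoters and in 14% of all. Of the 13 members with it 4 rose and 1 fell (median log2 fold change 0.06), and of the 12 without it 5 rose and 1 fell (median 0.12).

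Extracellular matrix genes had called members in both directions, against 19.3% higher and 16.2% lower of all genes. Of 57 glycoprotein and proteoglycan genes 21 rose and 13 fell. Spp1, osteopontin, stood at 2177, 2141, 2202, 2153 and 2098 CPM against 2949, 2978, 2964, 3009 and 2947 CPM, with no overlap (log2 fold change 0.47, adjusted p = 2.1e-17). Ltbp1, which stores latent TGF-beta, stood at 85.997, 82.05, 83.3, 84.8 and 75.7 CPM against 135, 123, 136, 128 and 138 CPM (log2 fold change 0.68, adjusted p = 5.66e-18). Dpt, dermatopontin, stood at 36.2, 34.9, 36.2, 33.2 and 36.3 CPM against 60.7, 55.9, 58.9, 68.2 and 69.9 CPM (log2 fold change 0.83, adjusted p = 9.01e-12). Fn1, fibronectin and the most abundant of the named genes, rose by 0.10, while Postn, periostin, fell by 0.26 and Ogn, osteoglycin, by 0.41 with overlapping groups. Of 24 collagen chain genes 5 rose and 4 fell, close to the shares of all genes. The counts were 3 and 6 without scramble library 1, and 3 and 5 without scramble library 3. Col7a1 rose by 0.67, Col11a1 fell by 0.53 and Col3a1 by 0.19, and Col1a1 and Col1a2 were not called.

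Most of the called genes that act on collagen were higher. Of 30 genes of collagen processing 15 rose and 3 fell (1 fell without scramble library 4 or Kdm5c siRNA library 1). Among all genes tested 19.3% rose and 16.2% fell. Bmp1, the procollagen C-proteinase, rose from 382 ± 4.38 to 454 ± 10.1 CPM, and its relative Tll1 from 3.21 ± 0.307 to 7.01 ± 0.547 CPM. Adamts2, a procollagen N-proteinase, fell by 0.36 and the related Adamts14 rose by 0.32. Of 39 proteases and their inhibitors 16 rose and 7 fell. Mmp9, a gelatinase, stood at 57.3, 59.9, 59.1, 59.7 and 57.6 CPM against 88.8, 95.1, 94.7, 93.3 and 97.7 CPM (log2 fold change 0.68, adjusted p = 2.17e-13). The inhibitor Timp1 rose by 0.41, Adamts1 fell by 0.46, and Mmp2 fell by 0.23 with overlapping groups.

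Called folding genes of the endoplasmic reticulum were mostly higher, and called genes of the integrated stress response, which adjusts amino acid supply, mostly lower. Of 40 tested folding and unfolded protein response genes 23 rose and 6 fell, against 19.3% and 16.2% of all genes. The chaperones Hspa5 and Hsp90b1 rose from 709 ± 17.2 to 867 ± 12.9 CPM and from 754 ± 22.8 to 903 ± 18.5 CPM, the disulfide isomerase Pdia6 by 0.29 and the transcription factor Xbp1 by 0.25. Calr, calreticulin, fell by 0.08. Of 42 genes of the integrated stress response 14 fell and 4 rose. Atf4, its transcription factor, fell from 350.1 ± 14.8 to 317 ± 13.2 CPM, Atf5 by 0.21, Ddit3 by 0.24, the seryl-tRNA synthetase gene Sars by 0.19 and the asparagine synthetase gene Asns by 0.17. The list had called changes only upwards at the earlier times, with 11 higher at 48 h and 13 at 24 h and 0 lower at either. Of all 12016 genes, 2253 were higher and 2019 lower at 48 h, and 1362 and 1426 at 24 h. The effect at 72 h was lower than that at 48 h for 10 members and than that at 24 h for 21, with 0 higher. Among all genes it was lower for 1.81% and 6.18%, and higher for 4.06% and 9.95%.

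**Figure D4:**
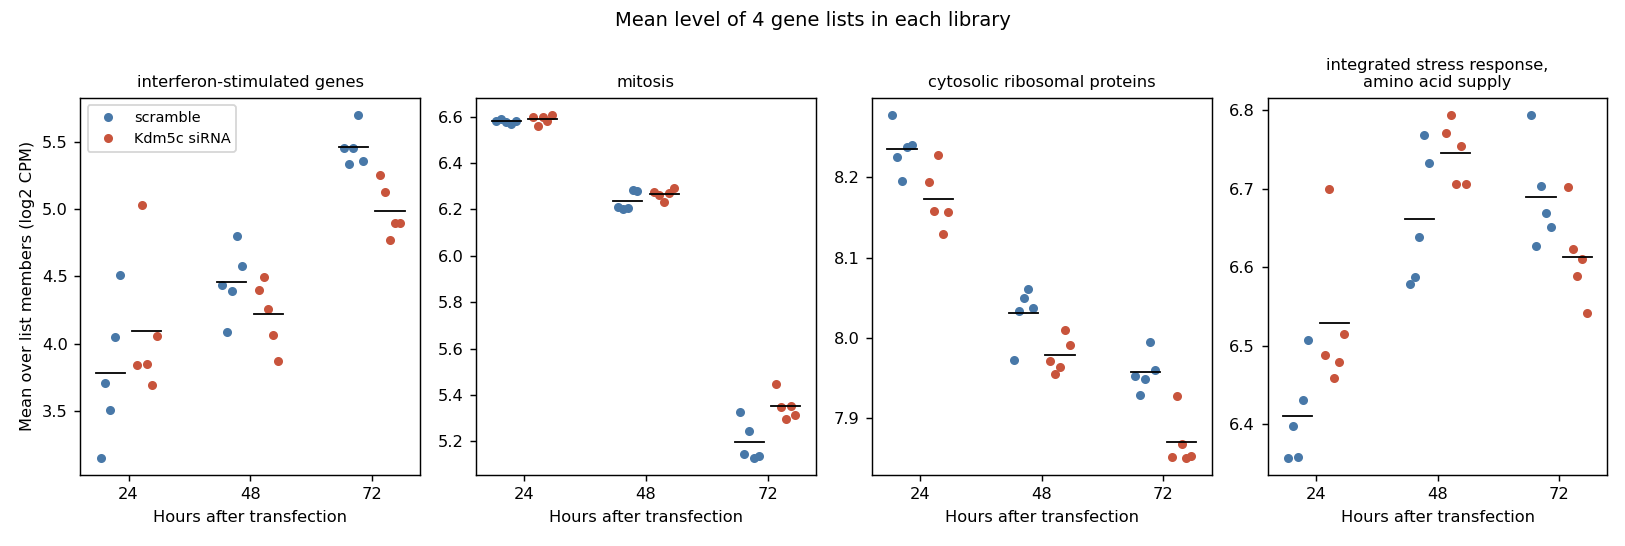
Mean level (log2 CPM) of 4 gene lists in each of the 30 libraries by hours after transfection, 1 point per library, with group means as black lines. At 72 h the interferon-stimulated and ribosomal protein genes are lower after Kdm5c siRNA and the mitosis genes higher, apart from scramble library 1; the stress response genes lie lower on average at 72 h and higher on average at 24 and 48 h.

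Most of the called genes of secreted signals were higher. Of 23 chemokine and cytokine genes 13 rose and 2 fell (median 0.22), against 19.3% and 16.2% of all genes. Cxcl12, the abundant stromal chemokine, stood at 1784, 1998, 1843, 1941 and 1954 CPM against 2365, 2421, 2537, 2534 and 2511 CPM, without overlap (log2 fold change 0.38, adjusted p = 1.02e-12). Il11 rose from 2.57 ± 0.393 to 4.46 ± 0.19 CPM, Csf1 by 0.25, Ccl2, Ccl7 and Ccl8 by 0.40, 0.44 and 0.63, while Cxcl1 was not called. Of 19 genes of the IGF axis 9 rose and 4 fell. Igfbp6, a binding protein that prefers IGF2, stood at 10.2, 9.33, 9.27, 10.8 and 8.80 CPM against 19.03, 21.7, 19.5, 19.3 and 17.8 CPM (log2 fold change 1.01, adjusted p = 3.7e-14). Each library after Kdm5c siRNA was above each scramble library. Igfbp3 and Igfbp4 rose by 0.61 and 0.23, the receptor Igf1r by 0.17, and the mRNA-binding protein Igf2bp2 fell by 0.27. In the BMP list of 20 genes 8 rose and 1 fell, among them the antagonist Grem1 (0.35) and the targets Id1 and Id2 (0.26 and 0.55).

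Other pathways had called genes in both directions, against 19.3% higher and 16.2% lower of all genes. Of 38 genes of TGF-beta signalling 10 rose and 6 fell: the activin subunit Inhbb rose from 19.96 ± 0.917 to 33.2 ± 2.53 CPM and Smad3 fell by 0.12. In the Wnt list of 30, 10 fell and 6 rose, with the receptors Lgr4, Fzd7 and Lrp6 down by values of −0.38, −0.25 and −0.18 and Ctnnb1 at 0.10. In the Notch list of 20, 5 fell and 3 rose: Notch1 fell from 66.98 ± 3.23 to 45.2 ± 1.18 CPM and Notch3 rose from 25.7 ± 1.54 to 34.6 ± 1.93 CPM. Of 40 immediate early genes 12 rose and 6 fell. Fosl1, Jun and Nr4a1 rose by 0.47, 0.29 and 0.44, and Gem, a small GTPase that was already lower at 24 h, fell by 0.75. Of 34 genes expressed in neurons 15 rose and 7 fell; the guidance gene Sema7a rose by 0.61, and Sema3a and Nrn1 fell by 0.54 and 0.74.

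Called regulators of adipogenesis were more often lower than higher on the day on which differentiation would start. Of 38 tested adipogenic transcription factor genes 14 fell and 7 rose (4 rose in the fit to the 10 libraries alone), with a median of −0.07. Over all genes 16.2% fell and 19.3% rose, and 25 of the 38 values were below 0. Zfp423, a factor of preadipocyte commitment, stood at 30.6, 35.3, 32.3, 34.3 and 34.6 CPM against 21.6, 22.4, 24.6, 23.2 and 24.4 CPM, with no overlap (log2 fold change −0.52, adjusted p = 2.62e-08). Nfib, Stat5a and Rxra fell by 0.32, 0.34 and 0.20. Klf5, which acts early in adipogenesis, stood at 34.1, 30.9, 31.2, 30.1 and 27.4 CPM against 47.5, 43.6, 42.2, 46.03 and 44.4 CPM (log2 fold change 0.55, adjusted p = 2.76e-12). Pparg, the master regulator, rose by 0.09 with overlapping groups and an adjusted p of 0.0462, and Cebpa and Cebpb were not called, at −0.18 and −0.02.

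Preadipocyte and adipocyte markers had called members in both directions, and called lipid synthesis genes were mostly lower. The shares over all genes were 19.3% higher and 16.2% lower. Of 20 preadipocyte markers 6 rose and 6 fell: Cd44, Ly6a (Sca-1) and Cd24a rose by 0.42, 0.64 and 0.50, and Dlk1, also known as Pref-1 and imprinted, fell from 2396 ± 129 to 2074 ± 79.6 CPM. Of 20 mature adipocyte genes that passed the filter, of 36 listed, 7 fell and 4 rose. Lipe and Plin4, of lipid droplets, fell by 0.38 and 0.26, and Fabp4 rose by 0.30 with overlapping groups. Of 26 genes of cholesterol synthesis and uptake 9 fell and 2 rose: Mvd and Msmo1 fell by 0.19 and 0.17, and the factor Srebf2 by 0.11. At 48 h 24 of the 26 had fallen and 1 had risen, against 2019 and 2253 of all 12016 genes. The 72 h effect was higher than the 48 h effect for 9 of the 26, against 4.06% of all genes. Of 17 fatty acid synthesis genes 8 fell and 1 rose, with Acaca and Scd1 down (−0.18 and −0.13) and Fasn and Acly not called.

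Among 58 lysosomal genes 21 fell and 7 rose, and Scarb2 fell by 0.44. Of 39 antioxidant genes of the NRF2 response 13 fell and 6 rose, with Nqo1 at −0.29, and of 15 LXR targets 7 fell and 2 rose, with Abcg1 at −0.31. Of 41 genes of glycolysis and hypoxia 11 rose and 7 fell (7 rose without Kdm5c siRNA library 2): the lactate exporter Slc16a3 rose by 0.76 and the oxidase Ero1l fell by 0.39. Of 26 cytosolic chaperone genes 9 rose and 2 fell, with Hsp90aa1 at 0.18. In the remaining lists 2 rose and 3 fell of 12 complement genes, and 6 rose and 7 fell of 17 bone and cartilage genes. Of 19 clock genes 2 rose and 3 fell, and of 24 long non-coding RNAs 3 rose and 7 fell. The shares over all genes were 19.3% higher and 16.2% lower.

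Among enzymes of the same histone mark, called genes were found in both directions, against 19.3% higher and 16.2% lower of all genes. Of 19 tested H3K4 methyltransferase and COMPASS genes 6 fell and 3 rose. Setd1b stood at 104, 107, 108, 105 and 104 CPM against 85.5, 86.9, 86.6, 79.97 and 82.7 CPM, with no overlap (log2 fold change −0.32, adjusted p = 2.3e-10). Kmt2c and Kmt2d fell by 0.18 and 0.11, Kmt2a and Men1 rose by 0.14 and 0.11, and Setd1a was not called. Of the 8 tested H3K4 demethylase genes Kdm5c and Kdm2b (−0.13) fell and Kdm1a rose by 0.06. Of 25 genes of the complexes that silence germline promoters with KDM5C 3 rose and 3 fell, both below the shares of all genes. The methyltransferase Dnmt3a fell by 0.25 and E2f6 rose by 0.16, and Mga and L3mbtl2 were not called. Of 17 genes of the RNA interference machinery 6 rose and 1 fell, with Tnrc6c at −0.37 and Dicer1 at 0.20.

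Imprinted genes fell more often than they rose. Of 25 tested, 12 fell and 4 rose, with a median of −0.10. Impact stood at 113, 133, 121, 124 and 123 CPM against 98.4, 94.2, 97.8, 101 and 102 CPM (log2 fold change −0.31, adjusted p = 3.08e-09). The vesicle coat gene Copg2 fell by 0.33, the antisense RNA gene Airn by 0.38 and Peg13 by 0.27, and Osbpl5 rose by 0.18. By position, the X chromosome, which carries Kdm5c and Phex, had 79 higher and 56 lower of 392 tested genes (20.2% and 14.3%). Over all tested genes the shares were 19.3% and 16.2%. Over the autosomes they ranged from 14.9% to 23.1% higher and from 12.7% to 22.5% lower, so X lay within their range. Chromosome 5 had the largest share of lower calls, 177 of 788 (22.5%), and it holds Gbp6 and Gbp9. Chromosome 7, with H19, had 118 of 899 lower (13.1%).

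Set beside the earlier times, 59.6% of the genes that rose and 59.8% of those that fell at 72 h had the same call at 48 h, and 37 and 18 had the opposite one. With 24 h the shares were 30.7% and 33.8%, and 85 and 62 genes had the opposite call. As shares of the 48 h calls they were 61.4% of the genes higher and 57.5% of those lower. Across 12015 genes, leaving out Kdm5c, the log2 fold changes at 72 and 48 h had a Pearson r of 0.716 and a Spearman rho of 0.643, and those at 72 and 24 h 0.339 and 0.351. The libraries of the times are separate, but genes are not independent replicates and the siRNA and cell line are shared.

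The difference of the effects was tested gene by gene. The 72 h effect was above the 48 h effect for 488 genes and below it for 217, and above the 24 h effect for 1195 and below it for 742. Prokr1 had the most negative difference from 48 h among genes averaging at least 2 CPM, −0.86 (adjusted p = 0.00813), after log2 fold changes of −0.16 at 24 h and −0.13 at 48 h. The rise of Ankrd1 was smaller than before, 0.75 at 72 h after 1.36 at 48 h, a difference of −0.61. The lysophosphatidic acid receptor genes Lpar4 and Lpar6 had differences of −0.60 each, with changes at 72 h of −0.41 and −0.33. Fgf2, a fibroblast growth factor, went from 0.31 at 48 h to −0.26 at 72 h.

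In the other direction, Agt, angiotensinogen, had the largest difference, 1.38 (adjusted p = 0.00224). It had fallen by 1.16 at 48 h and was not called at 72 h, where it stood at 7.38, 9.56, 8.12, 11.01 and 9.53 CPM against 7.59, 9.26, 13.5, 11.98 and 10.7 CPM, with overlapping groups. Ntrk3 and Slco4a1, both higher at 72 h, had differences of 0.98 and 0.81. The potassium channel Kcnh2 and the synuclein Sncg had fallen at 48 h (−0.23 and −0.28) and rose at 72 h (0.65 and 0.55), with differences of 0.88 and 0.83. Scube3, a secreted matrix protein, and Ndrg2 rose by 1.06 each at 72 h and had differences of 0.77 and 0.75. Against 24 h, H19 had a difference of −2.07, Apod of −1.63, Iigp1 of −1.44 and Ifit3 of −1.33, and Slco4a1, Lrrc15, Phex and Ntrk3 had 1.41, 1.34, 1.33 and 1.32. Of the 64 interferon-stimulated genes 32 had a lower effect at 72 h than at 24 h and 1 a higher one. The shares of all genes were 6.18% and 9.95%. At 24 h 5 of the 64 had been higher and 0 lower, against 1362 and 1426 of all 12016 genes. The mean level of the list overlapped between the groups at that time.

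**Figure D5:**
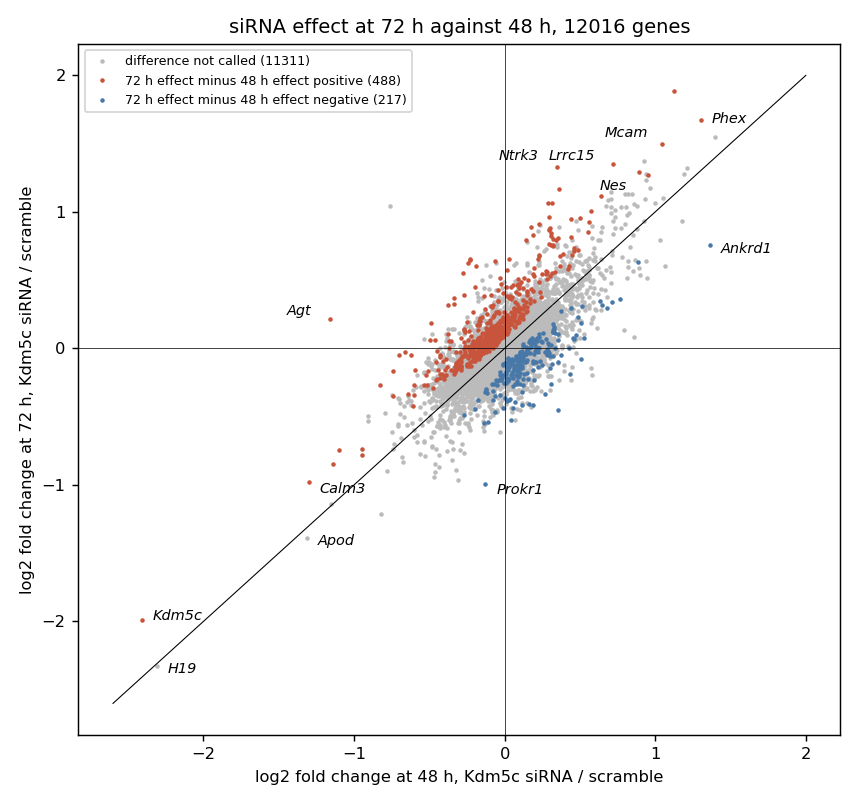
Log2 fold change of Kdm5c siRNA over scramble at 72 h against that at 48 h, 1 point per gene, with the diagonal of equal change. Colour marks genes whose difference between the times passed the test, 488 above the diagonal (red) and 217 below it (blue); H19 and Apod lie near the diagonal, Prokr1 and Ankrd1 below it and Agt and Ntrk3 above it.

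The 72 h effect was also read against the time course of the control cells. From 24 to 48 h, 4748 genes were higher (39.5%) and 4729 lower (39.4%) in the scramble libraries of those times, whose levels do not enter the 72 h contrast but which share its estimate of the spread. Of those lower with time 27.3% rose and 9.1% fell after Kdm5c siRNA at 72 h. Of those higher with time 14.6% rose and 24.9% fell, and of the 2539 not called in the time course 13.1% rose and 12.9% fell.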

How the data were processed

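RNA-seq read counts per gene and the matching CPM values were deposited by the authors for 30 libraries. Reads were aligned with STAR 2.7.2a to GRCm38, with edgeR 3.26.8 also named, per the submitters' processing notes; the read counter is not given in the sources used here. Tested on the files, the deposited count table holds the 12016 genes with at least 1 CPM in at least 20 libraries, and 100.0% of nonzero CPM values are whole reads within 0.05.

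Counts were fitted with edgeR 4.0.16 (R 4.3.3) by the quasi-likelihood test, with TMM scaling, over 6 groups of siRNA and time in 30 libraries, which share 1 estimate of the spread. Genes with a Benjamini-Hochberg adjusted p under 0.05 were called. The 72 h contrast and its differences from 48 and 24 h were tested, and the code was tested on simulated data. Named genes were Kdm5c, the 15 called genes with the largest change each way (mean of at least 2 CPM, no overlap, 2 predicted models passed over), up to 6 called members by adjusted p and the first 3 members of each of 48 lists, the 8 largest differences each way, and genes within 300 kb of H19. Stat2, Irf9, Igtp, Actg1 and genes outside the count table were named after their values were seen. Members and lists were chosen with earlier results of these data known. Alternatives were DESeq2 1.42.0, limma 3.58.1 on log2(CPM + 0.5) and (CPM + 2), other scalings and filters, a replicate block, the 10 libraries alone and each library left out. The pairing by replicate number was checked and not used.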

Additional observations from a re-analysis of the deposited data

Results flagged for a closer look

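In 3 of 62 groups of 5 libraries examined, for 31 genes, 1 library lay further from the rest than Dixon's 95% critical value of 0.71 allows, and chance flags about 1 in 20 groups. Iigp1, an interferon-induced GTPase, stood at 18.8 CPM in scramble library 4, with the nearest other scramble library at 13.2 CPM. That library also had the highest mean level of the interferon-stimulated genes in its group. Prokr1 stood at 6.09 CPM in Kdm5c siRNA library 5, with the nearest other at 4.91 CPM, and Tll1 at 3.74 CPM in scramble library 3, with the nearest other at 3.14 CPM.

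These 31 genes are Kdm5c and the 15 largest called changes each way, chosen by their 72 h change. That change is part of both differences below, so the counts of differing genes were partly set by the choice. By the edgeR test of the difference, with adjusted p under 0.05, the 72 h effect differed from the 48 h effect for 12 of the 31. Over all genes 4.06% had a positive and 1.81% a negative difference. The differences in log2 fold change, 72 h minus 48 h, were 0.42 for Kdm5c, 0.32 for Calm3, 0.30 for Map4, 0.37 for Phex, 0.45 for Mcam, 0.63 for Lrrc15, 0.98 for Ntrk3, 0.40 for Nes, 0.32 for Actg2, 0.81 for Slco4a1 and 0.47 for Cd53. The sole negative difference was −0.86 for Prokr1. The positive values of Kdm5c, Calm3 and Map4 are smaller falls at 72 h, and those of the other genes are larger rises.

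Against 24 h, 29 of the 31 genes differed by the same test. Over all genes 9.95% had a positive and 6.18% a negative difference from 24 h. The positive differences, 72 h minus 24 h, were 0.63 for Kdm5c, 0.41 for Calm3, 0.37 for Map4, 1.33 for Phex, 1.15 for Mcam, 1.34 for Lrrc15, 1.32 for Ntrk3, 0.81 for Lsp1, 0.96 for Nes, 0.61 for Lpin3, 0.84 for Ctsw, 0.98 for Actg2, 1.41 for Slco4a1, 0.89 for Tll1, 1.19 for Cd53, 0.72 for Adra2a, 1.13 for Abat and 0.76 for Tbkbp1. The negative differences were −2.07 for H19, −1.63 for Apod, −1.44 for Iigp1, −0.88 for Ifi27l2a, −0.83 for Prokr1, −1.34 for Gbp9, −1.19 for Sp100, −0.88 for Gpr155, −1.08 for Mx1, −1.08 for Gbp6 and −1.33 for Ifit3. Of the genes with negative differences, the interferon-stimulated ones had adjusted p of 0.0179 to 0.0466, close to the threshold, and the mean of the interferon list at 24 h ranged from 3.15 to 4.51 (log2 CPM) in the scramble libraries.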

How the results depend on the processing

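Over the other tools, scalings, filters and designs, 1970 to 2360 genes were higher and 1751 to 1972 lower at 72 h, and 2080 to 2389 and 1693 to 1916 with 1 library left out in turn. A fit to the 10 libraries alone called 1970 each way. The Kdm5c log2 fold change stayed between −2.0 and −1.95. The count of genes with a lower effect at 72 h than at 48 h was 334 with no low-count filter, against 217, in a fit to 32318 genes. With 1 library left out it was 172 to 268, and that of genes with a higher effect 401 to 569. Against 24 h the counts were 1035 to 1370 higher and 625 to 828 lower. For the named genes, 5892 of the gene and setting pairs kept direction and side of the threshold, 60 lost the call, 3 gained it and 0 changed direction; Ehmt1, mt-Nd1 and Fgf2 lost it most often, in 16, 11 and 8 settings, and Ifi44 and Kdm1a in 6 and 5. The setting with both libraries numbered 1 left out was chosen after seeing the data.

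The replicate numbers were shared between the groups, but only 2 of the 5 same-numbered pairs had deviations correlated above 0.1 (0.299 and 0.123), and 1 Kdm5c siRNA library was closest to its own number. With the replicate number as a block, 2360 genes were higher and 1945 lower. Depth limits genes near 0.098 to 0.114 CPM, the level of 3 reads.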

Other observations

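The deposited CPM table also holds 20302 genes with reads that are not in the count table, since they were below 1 CPM in more libraries than the filter allowed. Several were expressed mainly at 72 h. The genes below were chosen after their values were seen, and no p-value is given for them. Lum, which encodes the collagen-binding proteoglycan lumican, stood at 5.74, 12.1, 7.93, 11.2 and 11.4 CPM in the scramble libraries and at 1.66, 2.30, 2.98, 1.97 and 2.57 CPM after Kdm5c siRNA. The groups did not overlap, and at 24 h the scramble mean was 0.102 CPM. Tnr, the matrix glycoprotein tenascin R, stood at 10.9 ± 1.09 CPM against 5.80 ± 0.987 CPM (SD, n = 5 per group), and Osr2, a zinc finger factor, at 2.71 ± 0.503 against 1.46 ± 0.271 CPM. Sycp2, a gene of the meiotic synaptonemal complex, stood at 7.58 ± 1.14 against 4.17 ± 0.792 CPM.

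Higher after Kdm5c siRNA, without overlap, were the protease gene Mmp10 at 0.626 ± 0.151 against 2.00 ± 0.581 CPM, the aquaporin Aqp3 at 0.982 ± 0.0498 against 2.16 ± 0.447 CPM and the cytokine receptor subunit Csf2rb at 4.74 ± 0.849 against 7.30 ± 1.06 CPM. Rhox5, an X-linked homeobox gene of the testis, stood at 1.10, 1.14, 0.927, 1.33 and 0.95 CPM in the scramble libraries and at 2.54, 2.33, 2.16, 1.79 and 1.70 CPM after Kdm5c siRNA. Of the 50 germline genes listed, 1 passed the filter and was not called, and 40 had reads outside the count table. In the fit with no low-count filter 1 of these 40, Rhox5, was called higher and 2, Sycp2 and Taf7l, lower. Over the 20302 genes 189 were called higher and 149 lower in that fit. Its calls at such low levels are uncertain, since some came with overlapping groups. Oas1g, at means of 4.24 against 2.33 CPM, was called lower although its groups overlapped. Taf7l was near the level of 3 reads, at means of 0.306 against 0.102 CPM with overlapping groups.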
